A study of Mus musculus with 8 samples.

Results

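The inhibin, activin and follistatin system was examined in the testis of wild type and VRK1-deficient mice through 8 genes: the inhibin and activin subunits Inha, Inhba and Inhbb, the activin binders Fst and Fstl3, and the receptors Acvr1b, Acvr2a and Acvr2b. Their probes were taken by the gene name that the array files give to each non-control probe, which found 13 of 41174 probes, and these 8 genes stand among 27670 gene names on the array. VRK1-deficient mice are homozygous for a gene trap, an insertion of the β-geo reporter in an intron of Vrk1, a nuclear kinase gene. The trap is hypomorphic, so some full-length VRK1 remains, and the mutation is carried by every cell of the animal. Total RNA of whole testes at postnatal day 8 was hybridized to 1-color Agilent arrays, with 4 VRK1-deficient and 4 wild type biological replicates and 1 sample per array.

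Inhibins and activins are secreted dimers that share their β subunits. An α subunit (Inha) joined to βA (Inhba) or βB (Inhbb) makes inhibin, which lowers FSH release from the pituitary, whereas dimers of β subunits make activins, which raise it and also act within the testis on Sertoli cells and early germ cells. Follistatin (Fst) and follistatin-like 3 (Fstl3) bind and neutralize activins in the extracellular space. Activins bind the type II receptors ACVR2A and ACVR2B, which recruit the type I receptor ACVR1B, and the signal passes to SMAD2, SMAD3 and SMAD4. In the prepubertal testis, Sertoli cells are the main source of inhibin under the drive of FSH.

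Each probe is a single 60-base sequence. Some are shown here because a measured level is the binding of Cy3-labeled RNA to 1 such sequence and not to a whole transcript. Both Inha probes are shown since they can be compared with each other, together with the single probes of Inhba, Fst and Acvr2b. For Inhbb the dimmer probe is shown, whereas the calls of Inhbb rest on its brighter probe.
Inha A_52_P401484: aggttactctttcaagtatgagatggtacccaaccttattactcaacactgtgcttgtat
Inha A_51_P434554: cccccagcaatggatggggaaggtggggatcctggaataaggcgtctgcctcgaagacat
Inhba A_51_P239750: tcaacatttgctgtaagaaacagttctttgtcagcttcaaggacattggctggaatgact
Inhbb A_52_P152847: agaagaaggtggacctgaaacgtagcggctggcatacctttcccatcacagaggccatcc
Fst A_51_P381821: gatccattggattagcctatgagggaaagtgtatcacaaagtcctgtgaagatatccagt
Acvr2b A_52_P422618: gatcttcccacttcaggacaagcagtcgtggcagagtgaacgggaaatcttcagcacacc
Positions are those of the array files, in mouse build mm7. The Inha probes lie on the plus strand at chr1:75736294-75736353 and chr1:75733574-75733633, and that of Inhba lies on the plus strand at chr13:15394279-15394338. The Inhbb probe shown lies on the minus strand at chr1:119278359-119278418. The Fst probe aligned over chr13:111626922-111627594 (minus strand) and the Acvr2b probe over chr9:119108757-119110112 (plus strand), spans of 673 and 1356 bases, which are longer than the probes themselves. Each of the 6 sequences could be read in at least 1 forward frame without a stop codon, and no pair of them shared an identical run of more than 8 bases. Exons and untranslated regions were not assigned to the probes, since no annotation of this build was used here.

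Signals are given as multiples of the 75th percentile of the processed signal on the same array, so that 1 is the level of a fairly bright probe. Because probes differ in how they bind, levels of different probes were not compared with each other. Changes are log2 differences, VRK1-deficient minus wild type, with the standard error (SE) of the limma fit. A probe was called at a limma p-value under 0.05 after Benjamini-Hochberg adjustment over the 26948 tested probes, those detected well above background in 4 or more of the 8 arrays. The p-values measure the spread between these 8 samples.

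The labels were first checked on Vrk1 itself. Its probes gave 0.673 to 1.05 and 0.87 to 1.5 in wild type testes, against 0.0507 to 0.056 and 0.0557 to 0.0838 in VRK1-deficient testes, so every array had the Vrk1 level of its label, although the place of the probes relative to the trap was not determined. The arrays lay on 2 slides, with replicates 1 and 2 of both genotypes on slide 1 and replicates 3 and 4 on slide 2. Wild type samples took array positions 1 and 2 of each slide and VRK1-deficient samples positions 3 and 4, so position and genotype cannot be told apart. Wild type replicate 1 stood apart from its group: its correlation over tested probes was 0.987 to 0.9899 with the VRK1-deficient arrays and 0.970 to 0.9858 with the other wild type arrays. Its summed germ cell marker signal was 50.3, against 101 to 138 in the other wild type arrays and 31.5 to 57.2 in the VRK1-deficient arrays. Such a sum is weighted by its brightest probes. Stra8 alone gave 17.7 of the 50.3, and its signal was 42.0 to 62.9 in the other wild type arrays. Values without wild type replicate 1 are given beside the results whose call it changes. Because it was singled out for its likeness to the VRK1-deficient arrays, leaving it out was bound to widen the difference between genotypes. Called probes rose from 986 to 7655 without it, against 3 to 68 without any other single array. A call gained in this way follows in part from that choice and is no separate support.

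Of the 8 genes, Inhba was the 1 that was called, and it rose in the mutant. Among all tested probes, 986 were called (3.66%), of which 451 were higher in VRK1-deficient testes (1.67%). The other 7 genes did not pass the test with all arrays. Inha, Fst and Acvr2b joined Inhba at an unadjusted limma p under 0.05, 4 of 8 genes beside 28.8% of all tested probes. Inhba and Acvr2b were the genes whose arrays did not overlap between genotypes, 2 of 8 beside 16.7% of all tested probes. The fitted change was above 0 for 6 genes and below 0 for 2, with a median of 0.28, and the median of all tested probes was 0.041.

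**Figure D1:**
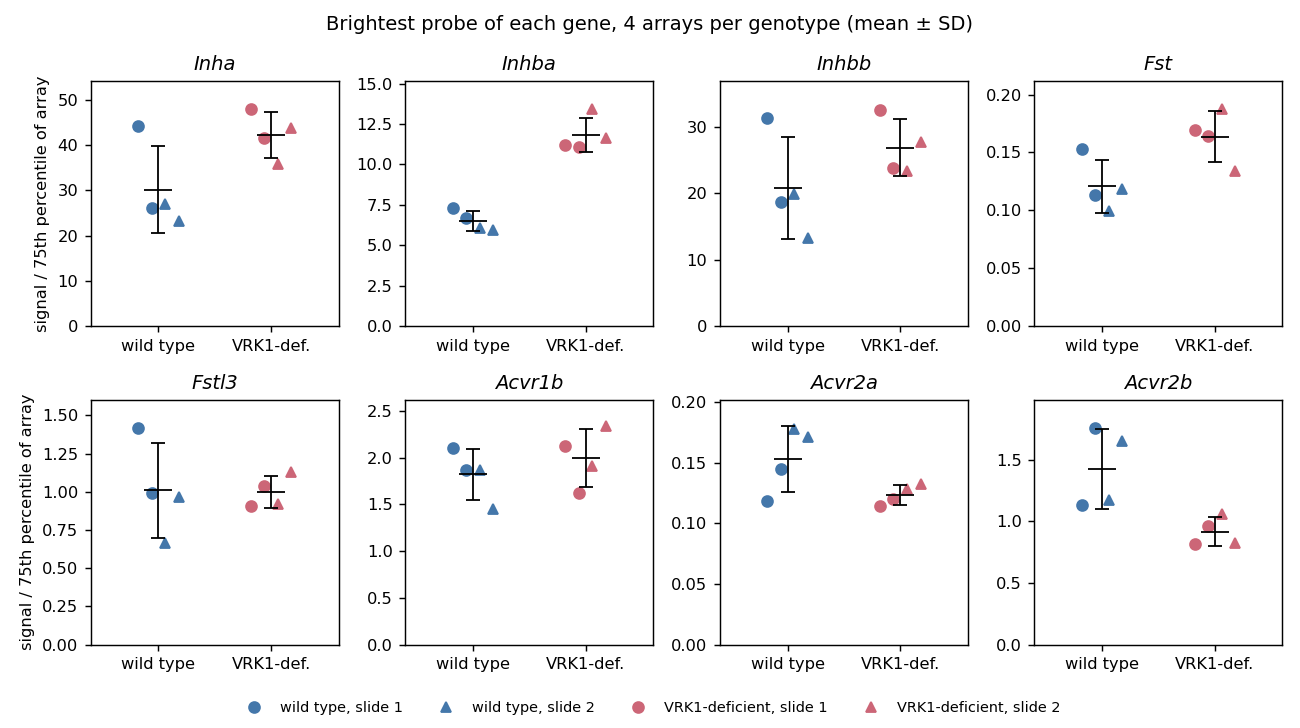
Signal of the brightest probe of each of the 8 genes on each array, as a multiple of the 75th percentile of that array (linear axis from 0, circles slide 1, triangles slide 2, bars mean and SD of 4 arrays per genotype). The genotypes do not overlap for Inhba (5.91 to 7.28 against 11.1 to 13.4) and Acvr2b (1.13 to 1.76 against 0.818 to 1.06).

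Inhba encodes the βA subunit, which is shared by activin A and inhibin A. Its probe (A_51_P239750, transcript NM_008380) gave signals of 7.28, 6.66, 6.07 and 5.91 in wild type replicates 1 to 4 and of 11.2, 11.1, 13.4 and 11.6 in VRK1-deficient replicates 1 to 4. All VRK1-deficient testes were thus above all wild type testes, and wild type replicate 1 was the highest of its group. The wild type mean was 6.48 ± 0.626 and the VRK1-deficient mean 11.8 ± 1.06 (SD, n = 4 each). This is a log2 change of 0.87 (SE 0.12, 95% interval 0.60 to 1.14), or 1.83-fold (1.52 to 2.2), with a limma p of 3.89e-05 and an adjusted p of 0.0315. By p-value the probe ranked 33 among all tested probes, and by size of change it ranked 120 among the 451 called higher.

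The rise of Inhba was seen on both slides, with a log2 change of 0.68 on slide 1 and 1.06 on slide 2. On slide 1 alone, with 2 arrays per genotype, the call was lost (limma adjusted p = 0.5), and on slide 2 alone it was kept (limma adjusted p = 0.0449). Without wild type replicate 1 the change was 0.93 with a limma adjusted p of 0.00344. Leaving out any other single array gave 0.81 to 0.90, and the call was kept without wild type replicate 3 (limma adjusted p = 0.0483). It was lost without wild type replicate 2 or 4 or any 1 of VRK1-deficient replicates 1 to 4, with limma adjusted p-values of 0.0673 to 0.115. When the arrays were not scaled, which moved the median of all tested probes to -0.14, the change was 0.69, or 0.83 relative to that median, and the limma adjusted p was 0.0713.

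**Figure D2:**
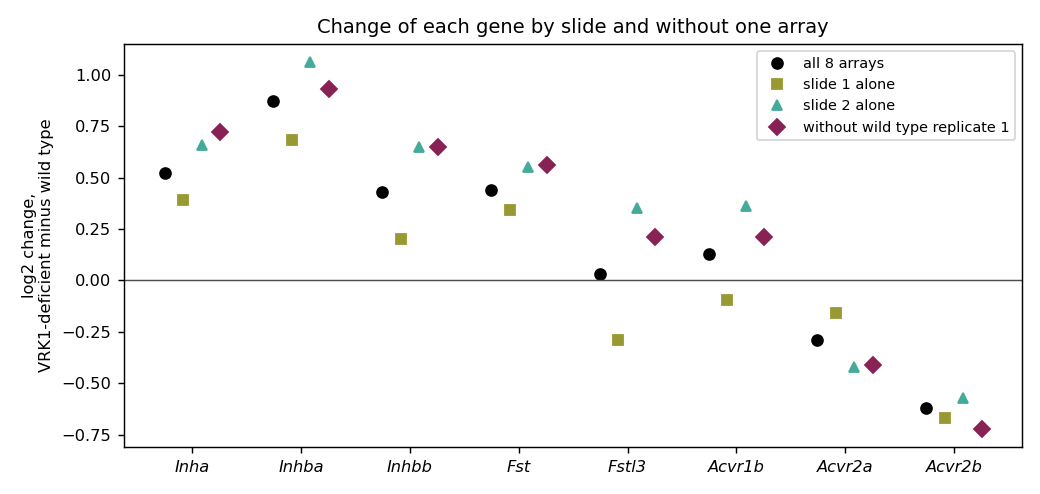
Log2 change, VRK1-deficient minus wild type, of the brightest probe of each gene with all 8 arrays (black circles), on slide 1 alone (squares), on slide 2 alone (triangles) and without wild type replicate 1 (diamonds). Inhba lies above 0 (0.68 to 1.06) and Acvr2b below 0 (-0.72 to -0.57) in each of these, while Fstl3 and Acvr1b lie on opposite sides of 0 on the 2 slides.

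Inha encodes the α subunit, which is found in inhibins and not in activins. On its brighter probe (A_52_P401484, NM_010564) wild type signals were 44.3, 26.2, 27.0 and 23.2, and VRK1-deficient signals were 47.9, 41.5, 35.9 and 43.7. Wild type replicate 1 lay within the VRK1-deficient range, and the other 3 wild type arrays lay below every VRK1-deficient array. The means were 30.2 ± 9.58 and 42.2 ± 5.0 (SD, n = 4 each), a log2 change of 0.52 (SE 0.20, 95% interval 0.067 to 0.98) with a limma adjusted p of 0.133. The other probe (A_51_P434554) had its 5 highest arrays in the same order, with 6.39, 3.83, 2.55 and 3.22 in wild type and 7.1, 6.19, 4.97 and 6.34 in VRK1-deficient testes. It had a log2 change of 0.70 (SE 0.26, limma adjusted p = 0.124). Without wild type replicate 1 the brighter probe passed the test, with a change of 0.72 and a limma adjusted p of 0.00696. The other Inha probe then passed as well, at 0.95 (limma adjusted p = 0.00761).

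Inhbb encodes the βB subunit of activin B and inhibin B, the latter being the main circulating inhibin of males. Signals of its brighter probe (A_51_P325904, NM_008381, at chr1:119276025-119276084 on the minus strand) were 31.4, 18.7, 19.9 and 13.2 in wild type and 32.6, 23.8, 23.4 and 27.8 in VRK1-deficient testes. Here too wild type replicate 1 was high, and a single VRK1-deficient array exceeded it. The log2 change was 0.43 (SE 0.24, 95% interval -0.12 to 0.98, limma adjusted p = 0.273), and it was 0.20 on slide 1, 0.65 on slide 2 and 0.23 without wild type replicate 4. The dimmer probe, whose sequence is shown above, gave 0.935, 0.52, 0.18 and 0.408 against 0.826, 0.675, 0.745 and 0.689, with a log2 change of 0.75 (SE 0.41, limma adjusted p = 0.257). Its change was 0.098 on slide 1 and 1.40 on slide 2, and leaving out 1 array other than wild type replicate 1 gave 0.33 to 0.84, while wild type replicate 3 was the lowest array. Without wild type replicate 1 the brighter probe passed the test at 0.65 (limma adjusted p = 0.0316) and the dimmer probe at 1.12 (limma adjusted p = 0.0339).

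Whether the subunits moved apart from each other was examined within arrays, where the scaling of an array cancels. The log2 signal of Inhba minus that of Inha was -2.18 ± 0.30 in wild type and -1.83 ± 0.29 in VRK1-deficient testes (SD, n = 4 each), a difference of 0.35 (exact permutation test over 70 arrangements, two-sided, p = 0.143, adjusted over 3 such contrasts 0.214). Leaving out wild type replicate 1 gave 0.20, and leaving out VRK1-deficient replicate 3 gave 0.21. For Inhbb minus Inha the difference between genotypes was -0.096 (exact permutation p = 0.371, adjusted 0.371), and it ranged from -0.18 without wild type replicate 4 to -0.046 without VRK1-deficient replicate 2. Neither contrast passed the test, so a larger change of Inhba than of Inha was not shown. The smallest p that 4 against 4 arrays allow is 0.0286.

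**Figure D3:**
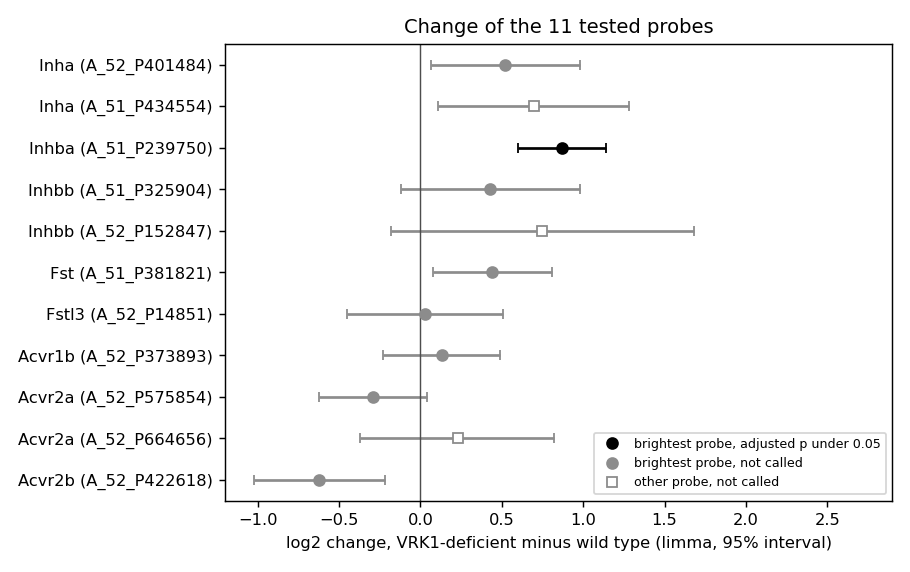
Log2 change, VRK1-deficient minus wild type, of the 11 tested probes of the 8 genes with 95% intervals from limma. Filled circles are the brightest probe of a gene, open squares its other tested probe, and black marks the called probe of Inhba at 0.87. The 2 tested probes lie on the same side of 0 for Inha and Inhbb and on opposite sides for Acvr2a.

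Follistatin, the main extracellular antagonist of activins, was measured by 1 probe of low signal (A_51_P381821, NM_008046). Wild type signals of Fst were 0.153, 0.113, 0.0993 and 0.118, and VRK1-deficient signals were 0.169, 0.164, 0.188 and 0.134. Of the VRK1-deficient arrays 3 exceeded the highest wild type array, which was again replicate 1. The log2 change was 0.44 (SE 0.16, 95% interval 0.078 to 0.81), or 1.36-fold, with a limma p of 0.0227 and an adjusted p of 0.118, and without wild type replicate 1 it was 0.56 (limma adjusted p = 0.0209). Relative to Inhba on the same array, Fst was lower in all 4 VRK1-deficient arrays than in any wild type array. That log2 difference was -5.76 ± 0.18 in wild type and -6.18 ± 0.18 in VRK1-deficient testes (SD, n = 4 each), a change of -0.43 (-0.34 on slide 1 and -0.51 on slide 2). Its exact permutation p was 0.0286, the smallest this design can give, and 0.0857 after adjustment over the 3 contrasts. It thus did not pass, and a contrast that stood alone at that p could not. Without wild type replicate 1 the change was -0.36.

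Fstl3, a related binder of activin, gave 1.42, 0.993, 0.662 and 0.966 in wild type and 0.908, 1.04, 0.917 and 1.13 in VRK1-deficient testes (A_52_P14851, NM_031380). The VRK1-deficient values all lay inside the wild type range. The log2 change was 0.029 (SE 0.21, 95% interval -0.45 to 0.51, limma adjusted p = 0.94), with -0.29 on slide 1 and 0.35 on slide 2, and it was -0.012 relative to the median of all tested probes when the arrays were not scaled.

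Acvr2b encodes a type II receptor that binds activins. Its probe (A_52_P422618, NM_007397) gave 1.13, 1.76, 1.17 and 1.65 in wild type and 0.818, 0.962, 1.06 and 0.822 in VRK1-deficient testes. Every VRK1-deficient array was below every wild type array, with the closest pair at 1.06 and 1.13. The means were 1.43 ± 0.322 and 0.916 ± 0.119 (SD, n = 4 each). The log2 change was -0.62 (SE 0.18, 95% interval -1.02 to -0.22), or 0.65 of the wild type level, with a limma p of 0.00661 and an adjusted p of 0.0709. It was -0.67 on slide 1 and -0.57 on slide 2. Without wild type replicate 1 it passed the test at -0.72 (limma adjusted p = 0.0179), and without any other single array the change was -0.71 to -0.51 with limma adjusted p-values of 0.0776 to 0.191.

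Acvr2a encodes the other activin type II receptor and has 3 probes. The brightest (A_52_P575854, NM_007396, at chr2:48907412-48907471) gave 0.118, 0.145, 0.178 and 0.171 in wild type and 0.114, 0.12, 0.128 and 0.132 in VRK1-deficient testes. Wild type replicate 1 lay among the VRK1-deficient arrays, and the other 3 wild type arrays lay above them. The log2 change was -0.29 (SE 0.15, limma adjusted p = 0.219) and became -0.41 (limma adjusted p = 0.0339) without wild type replicate 1. After normexp it was -0.066 (limma adjusted p = 0.716), and as the mean of the tested Acvr2a probes -0.032 (limma adjusted p = 0.904). A dimmer probe (A_52_P664656), well above background on 3 arrays of each genotype, had a change in the other direction, 0.23 (SE 0.26, limma adjusted p = 0.592). The remaining probe (A_52_P11800) was not well above background on any array.

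Acvr1b encodes the type I receptor that is recruited by both of these receptors. Its brighter probe (A_52_P373893, at chr15:101199369-101199428) gave 2.1, 1.87, 1.87 and 1.45 in wild type and 2.13, 1.62, 1.91 and 2.34 in VRK1-deficient testes. The ranges overlapped, and the log2 change was 0.13 (SE 0.16, 95% interval -0.23 to 0.49, limma adjusted p = 0.604). It was -0.095 on slide 1 and 0.36 on slide 2. The other Acvr1b probe (A_51_P402391) was well above background on 2 wild type arrays and 1 VRK1-deficient array and was not tested.

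Without wild type replicate 1, 6 of the 8 genes were called, all but Fstl3 and Acvr1b, beside 28.4% of all tested probes. Inha, Inhba, Inhbb and Fst were then higher and Acvr2a and Acvr2b lower in VRK1-deficient testes. Since the array left out was the wild type array singled out for its likeness to the mutant, the added calls are no separate support.

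The rest of the pathway was described through 46 further genes, of which 41 were tested. Bambi was called higher and Lefty2 lower, 2 of 41 genes beside 3.66% of all tested probes. Of the changes, 28 were above 0 and 13 below, with a median of 0.16. At an unadjusted limma p under 0.05 there were 16 of 41 genes (28.8% of all tested probes), 9 of 41 did not overlap between genotypes (16.7% of all), and 17 of 41 were called without wild type replicate 1 (28.4% of all). Bambi encodes a pseudoreceptor without a kinase domain that dampens TGF-β, BMP and activin signaling. Its signals were 4.97, 4.33, 3.69 and 4.25 in wild type and 6.35, 6.47, 5.99 and 6.14 in VRK1-deficient testes. The groups did not overlap, and Bambi rose by a log2 change of 0.54 (SE 0.12, limma adjusted p = 0.0477). The call was lost without any 1 array other than wild type replicate 1 (limma adjusted p 0.0661 to 0.149), with quantile normalization (limma adjusted p = 0.0507), without scaling (0.36, limma adjusted p = 0.392) and on either slide alone (limma adjusted p = 0.5 and 0.115).

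Lefty2, which encodes a secreted antagonist of Nodal, fell from 0.0405, 0.036, 0.0443 and 0.0479 in wild type to 0.0193, 0.0226, 0.0201 and 0.0133 in the VRK1-deficient arrays. The log2 change was -1.18 (SE 0.18, limma adjusted p = 0.0349), and the probe was well above background on 4 wild type and 2 VRK1-deficient arrays. With the normexp background correction the log2 change of Lefty2 was -0.026 (limma adjusted p = 0.91). That setting adds an offset of 50, which shrinks changes of dim probes, so it cannot show what the size of the change rests on. What the size rests on was not tested. Besides normexp, the call of Lefty2 was lost on slide 1 alone (limma adjusted p = 0.5) and without any 1 array other than wild type replicate 1 (limma adjusted p 0.0598 to 0.124). Lefty1, its close relative, gave 0.287 to 0.345 in wild type and 0.369 to 0.416 in VRK1-deficient testes, a log2 change of 0.33 (limma adjusted p = 0.0942, and 0.0367 without wild type replicate 1). Among 9 ligand genes, 6 were tested, with 2 changes above 0 and 4 below (median -0.13), and Inhbc, Mstn and Gdf3 were not well above background on any array.

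**Figure D4:**
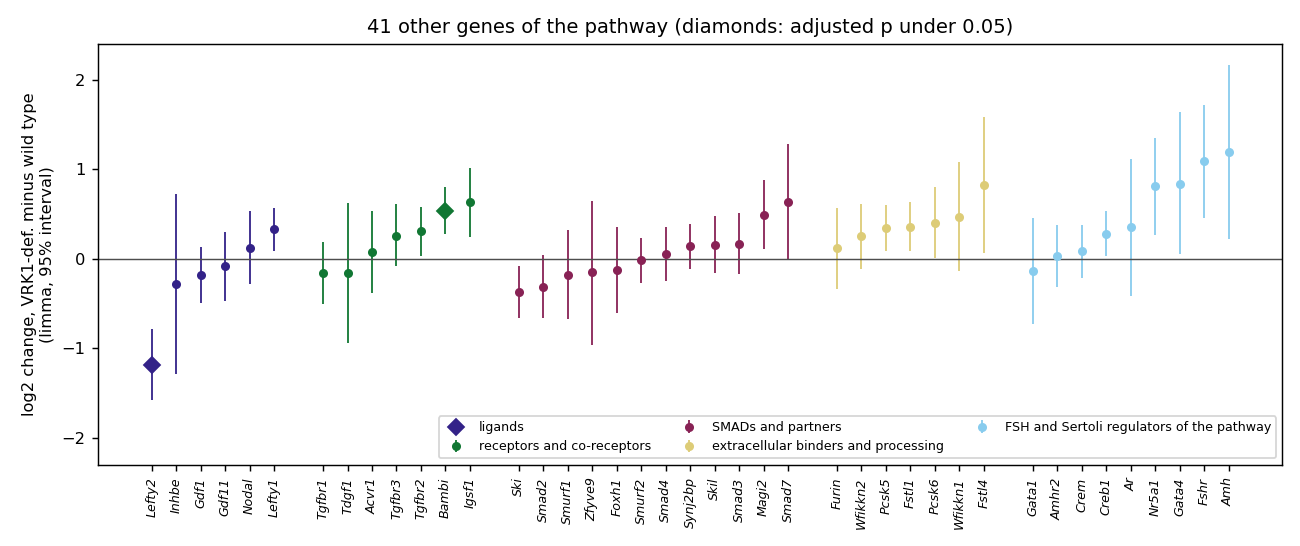
Log2 change, VRK1-deficient minus wild type, with 95% limma intervals for the 41 tested genes of the pathway outside the 8 described above, colored by role and ordered by change within each role. Diamonds mark the called genes, Lefty2 at -1.18 and Bambi at 0.54. All 7 tested binders and processing enzymes and 8 of 9 regulators lie above 0.

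Among receptors and co-receptors, 7 of 8 genes were tested, and 5 changes were above 0 and 2 below (median 0.26). Tgfbr3 encodes betaglycan, the co-receptor through which inhibin binds type II receptors. It had a log2 change of 0.26 (SE 0.15, limma adjusted p = 0.28), and of 0.39 without wild type replicate 1 (limma adjusted p = 0.0475). Acvr1, a type I receptor, had one of 0.072 (SE 0.20, limma adjusted p = 0.834), and leaving out 1 array gave -0.057 to 0.20. Acvr1c was not well above background on any array. In the intracellular group of 12 SMADs and partners, none was called with all 8 arrays. Without wild type replicate 1, 3 of 12 were called (28.4% of all tested probes). An unadjusted limma p under 0.05 was found for 2 of 12 (28.8% of all), and the median was 0.019.

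Smad2, Smad3 and Smad4 carry the activin signal to the nucleus. Their log2 changes were -0.31 (SE 0.15, limma adjusted p = 0.217), 0.17 (SE 0.15, limma adjusted p = 0.48) and 0.057 (SE 0.13, limma adjusted p = 0.802). Smad2 passed the test without wild type replicate 1, at -0.45 (limma adjusted p = 0.0189), and Smad3 and Smad4 did not (limma adjusted p = 0.127 and 0.729). Leaving out 1 array gave -0.021 to 0.16 for Smad4. The inhibitory Smad7, which activin and TGF-β signals induce, gave 0.11, 0.0543, 0.0919 and 0.0542 in wild type and 0.105, 0.0836, 0.121 and 0.165 in VRK1-deficient testes. This was a log2 change of 0.64 (SE 0.28, limma adjusted p = 0.174), 0.28 on slide 1 and 1.0 on slide 2, and without wild type replicate 1 it was 0.83 (limma adjusted p = 0.049). Ski, which encodes a co-repressor that binds SMADs, did not overlap between genotypes, with 7.6 to 9.28 in wild type and 5.55 to 7.41 in VRK1-deficient testes. That difference was a log2 change of -0.37 (limma adjusted p = 0.106).

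All 7 tested binders and processing enzymes had a change above 0 (median 0.36), and none was called with all 8 arrays. An unadjusted limma p under 0.05 was found for 4 of 7 (28.8% of all tested probes), and 4 of 7 were called without wild type replicate 1 (28.4% of all). Fstl1, a follistatin-like secreted protein, and Pcsk5, a proprotein convertase, were the 2 of 7 that did not overlap between genotypes (16.7% of all). Fstl1 gave 10.6 to 13.7 in wild type and 13.9 to 16.9 in VRK1-deficient testes, a log2 change of 0.36 (limma adjusted p = 0.1). Pcsk5 gave 2.1 to 2.52 and 2.68 to 3.21, a log2 change of 0.35 (limma adjusted p = 0.0919, and 0.0285 without wild type replicate 1).

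The regulators of the system in Sertoli cells had 8 of 9 changes above 0 (median 0.36), and none was called with all 8 arrays. An unadjusted limma p under 0.05 was found for 5 of 9 (28.8% of all tested probes), 3 of 9 did not overlap (16.7% of all), and 5 of 9 were called without wild type replicate 1 (28.4% of all). Fshr encodes the FSH receptor, which in the testis is found on Sertoli cells. Its signals were 1.59, 1.15, 0.558 and 1.05 in wild type and 2.42, 1.82, 2.14 and 2.32 in VRK1-deficient testes, without overlap. For Fshr the log2 change was 1.09 (SE 0.28, limma adjusted p = 0.0597), 0.63 on slide 1 and 1.54 on slide 2, and without wild type replicate 1 it was 1.3 (limma adjusted p = 0.00845). Nr5a1, a nuclear receptor gene of Sertoli and Leydig cells, had a log2 change of 0.81 without overlap (limma adjusted p = 0.076, and 0.00852 without wild type replicate 1). Creb1, a transcription factor that acts downstream of cyclic AMP, had one of 0.28, also without overlap (limma adjusted p = 0.137, and 0.0225 without that array). Amh, the anti-Müllerian hormone of immature Sertoli cells, gave 4.11, 1.72, 1.08 and 0.865 in wild type and 4.64, 3.01, 3.09 and 4.2 in VRK1-deficient testes. Wild type replicate 1 lay inside the VRK1-deficient range, and the log2 change was 1.19 (SE 0.43, limma adjusted p = 0.115), 0.49 on slide 1 and 1.90 on slide 2. The change of Amh was 1.65 without that replicate (limma adjusted p = 0.00479).

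Cell type markers were measured on the same arrays. Of 16 Sertoli cell markers, which include Fshr and Amh, 12 were higher and 4 lower in VRK1-deficient testes, and none was called with all 8 arrays (median log2 change 0.35). An unadjusted limma p under 0.05 was found for 10 of 16 (28.8% of all tested probes), and 11 of 16 were called without wild type replicate 1 (28.4% of all). Their summed signal was 453, 353, 358 and 347 in wild type and 494, 430, 447 and 501 in VRK1-deficient testes, so that wild type replicate 1 lay within the VRK1-deficient range here as it did for Inha and Inhbb. That sum is weighted by bright probes, with Clu and Ctsl at 164 and 110 of the 453 in wild type replicate 1. All 14 germ cell markers with a probe had a change below 0 (median -0.98). Sall4 and Tdrd1 were called lower, 2 of 14 beside 3.66% of all tested probes called in either direction. Both calls were lost without any 1 array other than wild type replicate 1 (limma adjusted p 0.0776 to 0.149 for Sall4 and 0.0766 to 0.151 for Tdrd1). An unadjusted limma p under 0.05 was found for 13 of 14 (28.8% of all), and 2 of 14 did not overlap between genotypes (16.7% of all). All 14 were called without wild type replicate 1 (28.4% of all tested probes). Each of these markers was well above background on at least 1 array. In bulk tissue, fewer or more cells of a type cannot be told apart from less or more RNA per cell.

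The 3 subunit genes, Fst and Acvr2b were also taken relative to the mean log2 signal of the 16 Sertoli markers on the same array, a comparison of 5 genes chosen after the data were seen. Relative to it Inhba was 0.20 ± 0.11 in wild type and 0.78 ± 0.23 in VRK1-deficient testes (SD, n = 4 each), without overlap. The difference of 0.58 (0.53 on slide 1 and 0.63 on slide 2) had an exact permutation p of 0.0286, which was 0.143 after adjustment over the 5 genes. That p is the smallest that 4 against 4 arrays allow, so no gene could pass this adjustment alone. The same differences were 0.23 for Inha (exact permutation p = 0.114, adjusted 0.19), 0.14 for Inhbb (exact permutation p = 0.571, adjusted 0.571) and 0.15 for Fst (exact permutation p = 0.371, adjusted 0.464). For Acvr2b the difference was -0.91 (exact permutation p = 0.0571, adjusted 0.143). These differences, when wild type replicate 1 was left out, were 0.53 for Inhba, 0.33 for Inha, 0.26 for Inhbb, 0.17 for Fst and -1.12 for Acvr2b. Without that array the exact permutation p, not adjusted over the genes, was 0.0286 for each of Inhba, Inha and Acvr2b. It was 0.2 for Inhbb and 0.429 for Fst. With all 8 arrays, none of the 5 passed after adjustment, and the part of cell composition in the change of each gene was not tested.

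**Figure D5:**
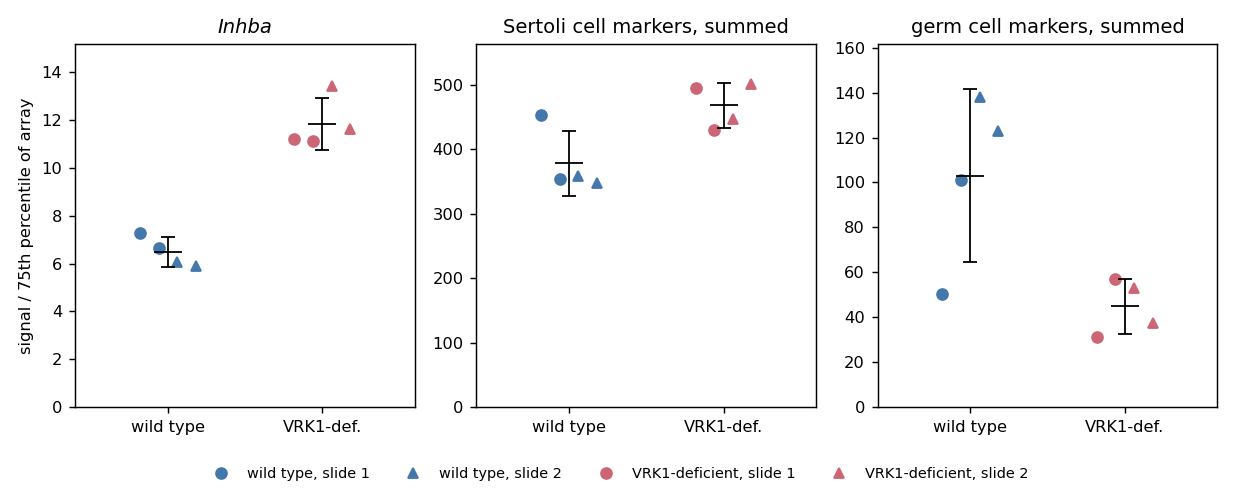
Signal of Inhba and summed signal of 16 Sertoli cell markers and 14 germ cell markers on each array, as multiples of the 75th percentile of that array (linear axes from 0, circles slide 1, triangles slide 2, bars mean and SD of 4 arrays per genotype). Wild type replicate 1 lies inside the VRK1-deficient range of the Sertoli sum (430 to 501) and the germ cell sum (31.5 to 57.2) and below the VRK1-deficient range of Inhba (11.1 to 13.4). Each sum is weighted by its brightest probes.

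The tested probes of other genes whose pattern over the 8 arrays was closest to that of each ligand subunit and of Fst were found by the root mean square (RMS) difference of log2 signals, after each probe was centered on its own mean. For Inhba these were AK030647 (RMS difference 0.0883), Spink4 (0.094) and Ddit4l (0.0964), against a median of 0.488 over 26940 probes. The closest to Inha were Lcn9 (RMS difference 0.0508), NAP111137-1 (0.0509) and Trappc6a (0.068), and the closest to Inhbb were Nhsl1 (0.0494), Lrfn3 (0.0745) and Tox (0.0796). Those closest to Fst were Shisa5 (RMS difference 0.0723), Tmprss6 (0.0748) and Smtn (0.0781). The likeness rests on 8 arrays and includes the genotype difference itself.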

How the data were processed

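Total RNA of testes from 4 wild type and 4 VRK1-deficient mice was measured on 1-color Agilent arrays, and groups were taken from the genotype in the labels. Signals were extracted by the authors with Agilent Feature Extraction (version 9.5.3.1 in the submitters' processing notes) and deposited as background-subtracted intensity values, not scaled between arrays. GeneSpring GX and Student's t-test are named in the methods, and how they normalized the arrays is not stated there. Of 45018 spots per array, 43379 were not controls. Outlier spots (58 to 134 per array) were left out, no such spot was saturated, and 63.6% to 69.5% of spots per array were well above background. Precision is limited by the number of arrays.

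Log2 intensities minus the 75th percentile of each array were averaged over spots of a probe. Probes detected above background in 4 or more arrays entered a fit in limma 3.58.1 (lmFit, then eBayes, with no covariate) in R 4.3.3, with Benjamini-Hochberg adjustment over all tested probes. Each gene was represented by its probe with the highest mean log2 signal. Single contrasts were compared by exact two-sided permutation tests over arrays. Tables and figures were made with Python 3.11.15, numpy 2.4.6, pandas 2.3.3, scipy 1.17.1 and matplotlib 3.10.9. Probe names were matched to a RefSeq gene table, and 8455 probes kept the name in the files. The comparison was also run on simulated arrays with independent noise for each probe. These hold no shift shared by many probes of an array, so they do not test the comparison under such a shift.

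All member genes are named, with Smad2, Smad3, Smad4, Smad7, Tgfbr3, Acvr1, Acvr1c, Fshr and Amh, every other listed pathway gene that was called or did not overlap between genotypes, and the 3 nearest patterns of Inha, Inhba, Inhbb and Fst. The pathway lists were ligands, receptors and co-receptors, SMADs and partners, extracellular binders and processing enzymes, and FSH and Sertoli regulators. The marker lists were Sertoli, germ, Leydig, peritubular myoid and macrophage genes. The members and lists were chosen with earlier results of these data known. The alternatives were quantile normalization, no scaling, a normexp background correction (offset 50), no filter on dim probes or one on all 8 arrays, slide as a block, each slide alone, the replicate number as a block, the methods' t-test, an intensity trend with robust variances, genes as the mean of their probes and each array left out in turn.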

Additional observations from a re-analysis of the deposited data

How the results depend on the processing

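Direction was kept under all 20 alternatives by Inha, Inhba, Inhbb, Fst, Acvr2a and Acvr2b, although Acvr2a shrank to -0.066 with normexp and -0.032 as the mean of its probes. Fstl3 turned to -0.15 without scaling (-0.012 relative to the median of all probes) and -0.29 on slide 1, and with 1 array left out it ranged from -0.16 (wild type replicate 3) to 0.21 (wild type replicate 1), with -0.033 without VRK1-deficient replicate 4. Acvr1b turned to -0.095 on slide 1, and its -0.047 without scaling was 0.091 relative to that median. The call of Inhba was kept under 11 alternatives and lost under 9, with a change of 0.68 to 1.06 and limma adjusted p of 0.00344 to 0.5. It was lost without scaling and without the filter on dim probes (limma adjusted p = 0.0713 and 0.0658). The causes were not tested. Called probes numbered 986, and 17 without the filter, 641 with slide as a block, 3 on slide 1, 2275 with the replicate block, 162 by the methods' t-test after adjustment (7066 at its unadjusted threshold), 1915 with an intensity trend and robust variances, and 3 to 7655 with 1 array left out. The highest of these was without wild type replicate 1, and the others were at most 68. Without scaling, calls split into 64 higher and 852 lower, against 451 and 535. Of the 8 genes, 0 were called without scaling, without the filter or on slide 1, where 916, 17 and 3 of all probes were called. With 1 array left out, 0 to 6 of the 8 were called. An unadjusted limma p under 0.05 was found for 5447 probes without scaling, 12206 without the filter and 2663 on slide 1. Of the pathway genes, 1 was called with quantile normalization, 1 without scaling, 4 with normexp, 0 without the filter, on slide 1 or by the methods' t-test, and 0 to 17 with 1 array left out. Correlations of the deviations of arrays with the same replicate number were 0.468, 0.0735, 0.188 and -0.138. Those of arrays with different numbers ran from -0.37 to 0.272. Replicate 1 thus had the highest value, the other numbers lay within that range, and whether the numbers pair the arrays was not settled. The replicate block left Inhba as the 1 member called (limma adjusted p = 0.0264). No contrast within arrays passed after adjustment in the settings it was run in, of which each slide alone and the replicate block could not reach the threshold. Signal over background limits Lefty2, well above it on 2 VRK1-deficient arrays, and the dimmer Acvr2a probe, well above it on 3 arrays of each genotype.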

Other observations

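No Sertoli cell marker was called with all 8 arrays, and the signs of their changes differed. Rhox5, a homeobox gene that androgen induces in Sertoli cells, gave 1.88, 3.78, 3.7 and 7.58 in wild type and 1.61, 1.78, 1.32 and 2.62 in VRK1-deficient testes. It had a log2 change of -1.08 (SE 0.38, limma adjusted p = 0.111, and 0.0132 without wild type replicate 1), close in size to that of Fshr and opposite in sign. Cldn11, which encodes a tight junction protein of Sertoli cells, was below 0 as well, at -0.29 without overlap between genotypes (limma adjusted p = 0.126), while Ctsl and Trf, genes of secreted Sertoli cell products, were at 0.38 and 0.39 without overlap (limma adjusted p = 0.0786 and 0.0675, and 0.0252 and 0.0329 without wild type replicate 1). The Sertoli genes Rhox5, Cldn11, Ctsl and Trf were chosen for mention after their values were seen.

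Of 8 Leydig cell markers, 6 were higher and 2 lower, with none called (median log2 change 0.36). An unadjusted limma p under 0.05 was found for 4 of 8 (28.8% of all tested probes). The genotypes did not overlap for 3 of 8 (16.7% of all), and 4 of 8 were called without wild type replicate 1 (28.4% of all). Hsd17b3 had the largest change of the list, 1.55 without overlap (limma adjusted p = 0.0559, and 0.00395 without that array). Which cells express Hsd17b3 at this age was not measured here, so its change is not assigned to Leydig cells. The list also holds Nr5a1, described above as a gene of Sertoli and Leydig cells. Of 7 peritubular myoid markers, 2 were higher and 5 lower (median -0.06), and 1 of 7 was called (3.66% of all tested probes). This was Cnn1, a calponin gene of smooth muscle, which fell by 0.99 on the log2 scale (limma adjusted p = 0.0445, and 0.0661 to 0.147 without any 1 array other than wild type replicate 1). An unadjusted limma p under 0.05 was found for 2 of 7 (28.8% of all). The genotypes did not overlap for 2 of 7 (16.7% of all), Cnn1 and, in the other direction, Des at 0.33 (limma adjusted p = 0.178). All 6 macrophage markers were slightly above 0 (median 0.09), with none called and none at an unadjusted limma p under 0.05.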
